A study of Mus musculus with 30 samples.

Results

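Collagen genes were described across the liver transcriptomes of 6 treatment groups. Members were taken by name, as every row of the deposited count table whose symbol is Col, a number, a and a number. The table of 48440 genes held 44 of them, and 40 had at least 10 counts summed over the 30 libraries: 9 of 11 fibrillar genes, all 6 basement membrane genes of type IV, and 25 of 27 genes of other types. Col19a1, Col9a1, Col2a1 and Col11a1 fell below that limit with 0, 2, 4 and 6 counts. Of the 40, 28 were abundant enough to be tested: 9 fibrillar, 5 of type IV and 14 others.

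All mice were wild-type females of the strain C57BL/6J. At 8 weeks of age each received an osmotic pump, which the controls therefore carried too. The pump delivered phosphate-buffered saline (the groups PBS, CDDP and CRS) or ACBP, the acyl-CoA-binding protein also named DBI, at 2.5 mg/mL (the groups ACBP, CDDP+ACBP and CRS+ACBP). The study made 2 models of anorexia, a loss of feeding. In 1 of them CDDP (cisplatin, a drug that crosslinks DNA) was given 72 hours after implantation. In the other, CRS, which the labels do not spell out and which is read here as restraint stress, began after 48 hours. The sources used here do not say how long afterwards livers were taken. Each group had 5 libraries of liver. No group analysed here had its food restricted alone, and a drop in feeding by itself and the agents' own effects cannot be told apart. The labels do not say that each library came from its own animal, and p-values then measure only the spread between these libraries. The comparisons ask what each anorexia model changed, and whether the ACBP pump altered that change.

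Collagens are secreted proteins whose chains wind around each other into a rigid helix. Fibrillar collagens (types I, III and V in most organs) assemble into the fibrils that carry tension, type IV forms the network of basement membranes, and the other types decorate fibrils, anchor membranes or span the cell surface. In the healthy liver, stellate cells of the sinusoids and fibroblasts of the portal tracts make most fibrillar collagen, endothelial cells contribute type IV, and hepatocytes are a known source of type XVIII, whose end is cut off as endostatin. Accumulation of types I and III by activated stellate cells is what defines fibrosis.

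Promoter windows are shown first for the members on which the results turn. RefSeq windows on build GRCm38.p6, each 300 bases long with 250 before the transcription start and 50 from it on, existed for 32 of the 40 genes (34 windows). Col4a1 and Col4a2 lie head to head on chromosome 8, and their windows share 78 bases. They are shown because both chains are needed for 1 protein, while in the main edgeR fit the rise after cisplatin passed for Col4a1 only. The rise of Col4a2 passed in some alternatives, given below. Col5a3 and Col27a1 are shown as the abundant fibrillar genes whose falls passed in all 19 alternatives, and Col3a1 as the type III gene whose fall was lost in 14 of them. Capitals mark matches on either strand to 5 motifs, named after the proteins known to bind such letters. They are the NF-Y box CCAAT, the Sp1 or GC box GGGCGG, the box of the TATA-binding protein spelled TATAAA, the AP-1 site spelled TGACTCA and the SMAD element with the letters CAGACA. The windows are Col4a1 at chr8:11312777-11313076 (minus strand), Col4a2 at chr8:11312555-11312854 (plus), Col5a3 at chr9:20815018-20815317 (minus), Col27a1 at chr4:63215162-63215461 (plus) and Col3a1 at chr1:45311288-45311587 (plus), each printed 5′ to 3′ on its own strand.
Col4a1: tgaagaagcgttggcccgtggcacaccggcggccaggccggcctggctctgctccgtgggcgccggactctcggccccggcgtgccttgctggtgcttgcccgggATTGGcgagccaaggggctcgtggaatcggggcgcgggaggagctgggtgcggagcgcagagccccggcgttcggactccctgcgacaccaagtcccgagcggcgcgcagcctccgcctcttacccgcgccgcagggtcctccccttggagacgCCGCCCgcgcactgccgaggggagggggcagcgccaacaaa
Col4a2: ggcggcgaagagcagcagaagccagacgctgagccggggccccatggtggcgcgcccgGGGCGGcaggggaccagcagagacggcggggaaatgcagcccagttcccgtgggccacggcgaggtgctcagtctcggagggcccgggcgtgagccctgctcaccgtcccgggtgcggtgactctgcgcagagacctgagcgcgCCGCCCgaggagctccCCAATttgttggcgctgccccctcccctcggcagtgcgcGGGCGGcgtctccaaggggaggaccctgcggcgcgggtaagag
Col5a3: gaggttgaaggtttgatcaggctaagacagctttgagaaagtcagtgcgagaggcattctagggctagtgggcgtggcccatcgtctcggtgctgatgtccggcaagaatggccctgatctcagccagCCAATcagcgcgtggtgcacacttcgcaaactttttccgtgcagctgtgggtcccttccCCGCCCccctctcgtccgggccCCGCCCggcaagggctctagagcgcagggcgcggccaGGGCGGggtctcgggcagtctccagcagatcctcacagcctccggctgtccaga
Col27a1: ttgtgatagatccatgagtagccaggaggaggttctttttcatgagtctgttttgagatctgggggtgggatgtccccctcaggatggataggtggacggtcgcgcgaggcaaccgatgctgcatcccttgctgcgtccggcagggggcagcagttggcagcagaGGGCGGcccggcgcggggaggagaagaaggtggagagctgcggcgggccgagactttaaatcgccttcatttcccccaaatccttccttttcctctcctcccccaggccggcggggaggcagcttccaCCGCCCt
Col3a1: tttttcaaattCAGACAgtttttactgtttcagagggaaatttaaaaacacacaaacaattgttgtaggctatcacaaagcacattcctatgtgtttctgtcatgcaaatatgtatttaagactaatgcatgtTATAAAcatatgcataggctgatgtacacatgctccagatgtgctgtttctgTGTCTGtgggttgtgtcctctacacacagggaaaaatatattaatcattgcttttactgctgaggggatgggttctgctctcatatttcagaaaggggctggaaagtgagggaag

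The Col3a1 window held 1 TATA and 2 SMAD motifs at 37.7% GC. By contrast, Col5a3 held 1 NF-Y and 3 Sp1 motifs at 63.3% GC, and Col27a1 held 2 Sp1 motifs at 61.7%. The Col4a1 window held 1 NF-Y and 1 Sp1 motif, and that of Col4a2 1 NF-Y and 3 Sp1 motifs. The Sp1 letters stood in 64.7% of the collagen windows and in 35.7% of all 32851 windows, beside a median GC content of 60% and 52.7%. For the NF-Y letters the shares were 32.4% and 37.4%, for TATA 14.7% and 13.6%, for SMAD 26.5% and 21.04%, and for AP-1 2.94% and 5.202%. A match describes the letters alone.

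Libraries held 13957380 to 18479134 reads counted on genes. Cdkn1a, a target of p53 that marks DNA damage, checks the cisplatin label: it stood at 0.688 to 6.46 CPM, a gene's counts scaled to the library's size, in PBS and at 154 to 456 CPM in CDDP. Under the ACBP pump it was lower after cisplatin, at 63.2, 36.97, 52.8, 5.12 and 16.4 CPM in the 5 libraries, against 1.81 to 10.3 in ACBP. The hepatocyte list summed to at least 45387 CPM in every library. Transcripts of skeletal muscle exceeded 2000 CPM in 6 libraries (PBS 2, CRS 1, ACBP 2, CDDP+ACBP 2, CRS+ACBP 3 and CRS+ACBP 4, with 11727 in PBS 2), and brain transcripts reached 248 CPM in ACBP 4. CDDP replicate 5 stood apart among collagens, with Col1a1 at 0.0807, Col3a1 at 0.0807 and Col18a1 at 2449 CPM. Stellate cell transcripts were low there too: Lrat, the retinol esterase of stellate cells, was at 0.887 CPM against 4.28 to 11.6 in the other CDDP libraries. CDDP replicate 3 had the highest sum of myofibroblast and smooth muscle markers, 209.6 CPM against 5.97 to 39.6 in the other CDDP libraries. For the main collagen calls that turn on these libraries, values without them follow.

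Levels are compared between genes as CPM per kilobase of exon. Col18a1 led by far in PBS liver at 105 ± 8.01 (SD, n = 5), and it supplied 68.7 to 96.0% of all collagen reads in a library (median 74.1%). Next came Col5a3 at 7.80 ± 2.43, the fibrillar Col27a1 at 4.12 ± 0.688, Col14a1 at 2.94 ± 0.460, Col6a1 at 2.75 ± 0.438 and Col3a1 at 2.63 ± 0.370. The type IV pair followed with Col4a2 at 2.32 ± 0.986 and Col4a1 at 2.11 ± 1.09. Col1a2 and Col1a1, the chains of the body's most abundant collagen, stood at only 1.11 ± 0.263 and 1.07 ± 0.371. The lowest of the tested members was Col4a4 at 0.0594 ± 0.0262. Only the steps from Col18a1 to Col5a3 and from Col5a3 to Col27a1 exceeded the spread: from Col27a1 down, the ranges of each pair of neighbours in this order overlapped.

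**Figure D1:**
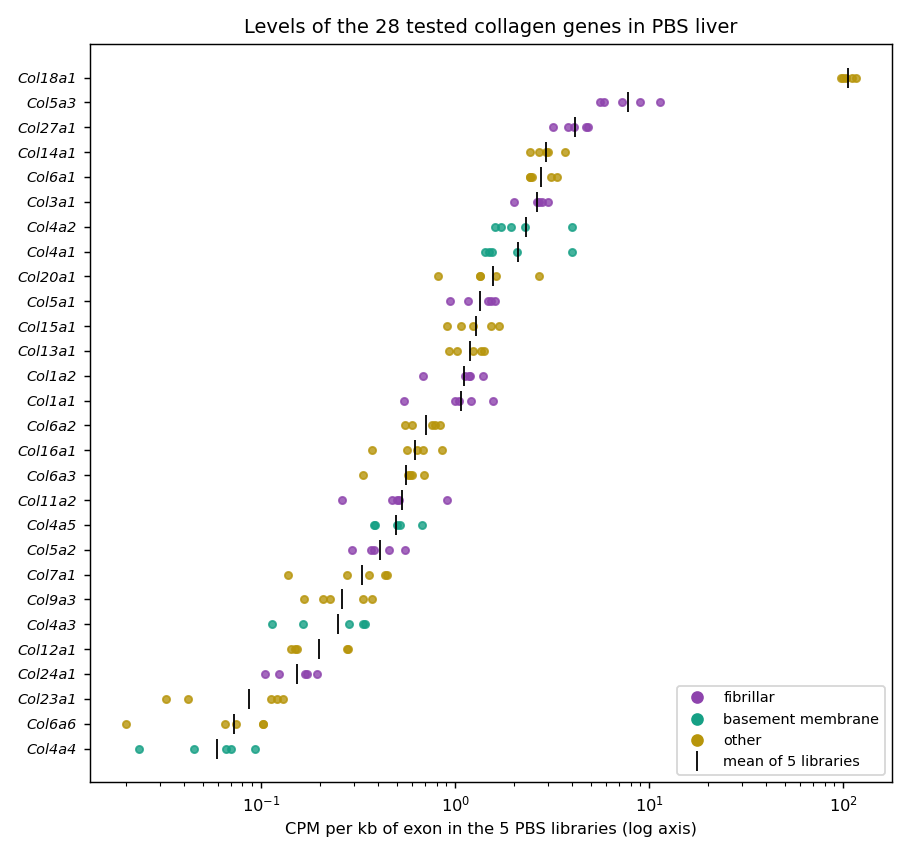
Level of each tested collagen gene in the 5 PBS libraries, in CPM per kilobase of exon on a log axis, with points for libraries, black ticks for means and colours for classes. Col18a1 stands at 105, Col5a3 at 7.80 and Col4a4 at 0.0594, and neighbours below Col5a3 overlap.

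The 12 members left out of the main fit had 13 to 172 counts in all, and the sparsest tested member, Col23a1, had 237. They were Col4a6, the last type IV gene, the short-chain Col8a1, Col8a2 and Col10a1, the membrane-spanning Col17a1 and Col25a1, the type VI chains Col6a4 and Col6a5, the cartilage chain Col9a2, and Col22a1, Col26a1 and Col28a1. Mean PBS levels were at most 0.0409 CPM per kilobase, and the highest value in any library was 1.20 CPM for Col6a5 in ACBP. In CDDP, Col4a6 had 16, 2, 20, 10 and 1 counts in the 5 libraries, and in PBS 0, 3, 6, 5 and 3, so 3 CDDP libraries were above every PBS library and 2 within their range. After its filter on low counts, the main edgeR fit tested none of the 12. Some alternatives tested Col6a5, with 3, 0, 3, 2 and 0 counts in CDDP. It was called lower in CDDP than in CRS by DESeq2 (log2 fold change -2.47, adjusted p = 0.0201). Leaving out CDDP 1 or 3 or CRS 1, 3, 4 or 5 gave this call too (edgeR adjusted p at most 0.0476). Against PBS, Col6a5 was called lower in CDDP without PBS 3 (edgeR adjusted p = 0.0498).

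Cisplatin lowered most collagens that it changed. Under the PBS pump, 11 of the 28 tested members were lower in CDDP and 2 higher, by edgeR's quasi-likelihood test at a Benjamini-Hochberg adjusted p under 0.05. The background was broad, since 41.4% of all 16304 genes passed in this comparison, 18.3% lower and 23.1% higher. The median log2 fold change was -0.74 over the collagens and 0.02 over all genes. By class, 5 of 9 fibrillar genes fell and 0 rose, 1 of 5 type IV genes fell and 1 rose, and 5 of 14 others fell and 1 rose. In 4 of the 13 changed members, Col5a3, Col14a1, Col24a1 and Col27a1, no CDDP library reached the PBS range. The share of all genes without such overlap was not counted. In bulk liver tissue, fewer cells of a type and less RNA per cell cannot be told apart.

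**Figure D2:**
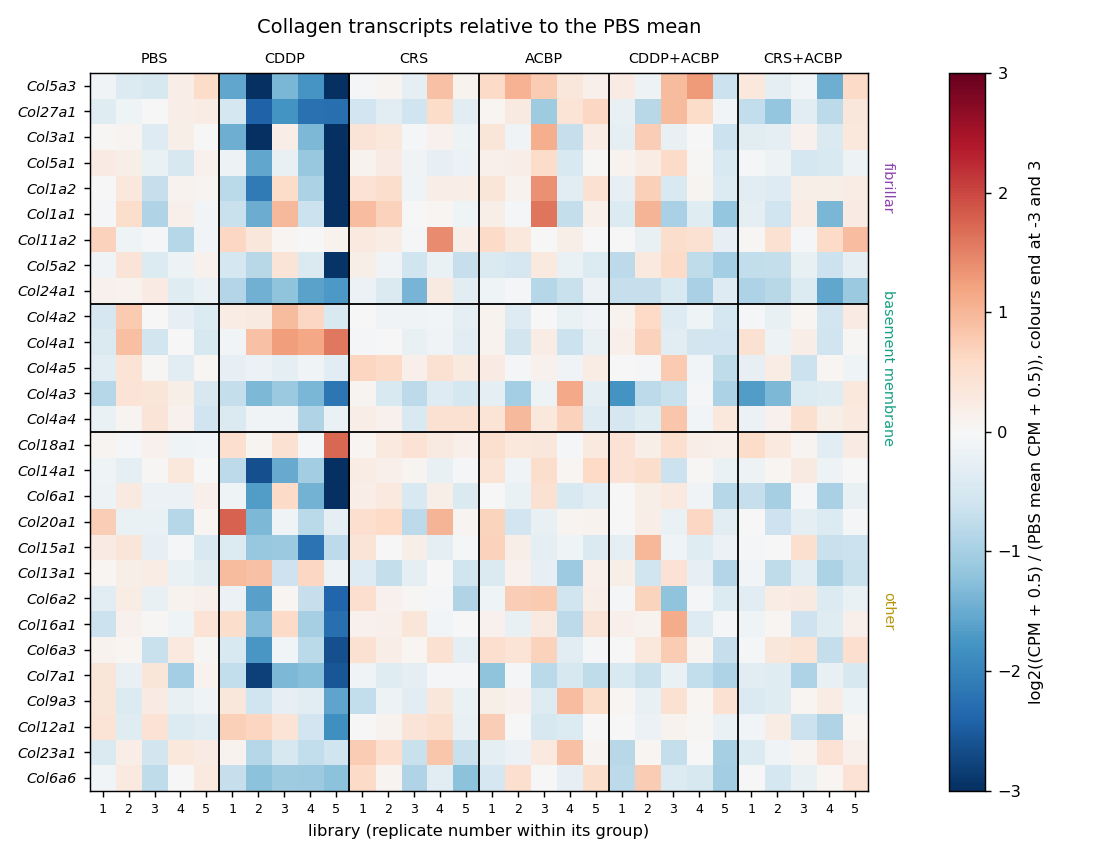
Each tested collagen gene (rows, by class) in each of the 30 libraries (columns, by group), as log2 of (CPM + 0.5) over the PBS mean plus 0.5, with blue below and red above PBS and colours ending at -3 and 3. The CDDP block is mostly blue, CDDP replicate 5 most of all, while Col18a1 and Col4a1 are red in that library. The other groups stay nearer the PBS level for most genes. Single libraries depart from it, such as CRS+ACBP 4 with low Col5a3 and Col24a1 and ACBP 3 with high Col1a1.

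Among fibrillar genes, the type V chain Col5a3 (ENSMUSG00000004098, chromosome 9, 20770050 to 20815067, minus strand) had the lowest adjusted p of all collagens. Type V collagen lies within type I fibrils and helps to start them. Listing replicates 1 to 5 in order, Col5a3 stood at 49.2, 39.9, 37.7, 61.1 and 77.7 CPM in PBS and at 17.7, 2.79, 20.1, 15.3 and 2.90 in CDDP. All CDDP libraries were below all PBS libraries, a 4.49-fold fall (log2 fold change -2.17 ± 0.45, edgeR adjusted p = 0.000374). With the ACBP pump the values were 79.998, 110.3, 90.2, 67.9 and 59.3 without and 63.4, 47.9, 102, 129 and 33.9 with cisplatin. CRS gave 52.1, 55.9, 43.1, 97.4 and 57.1, and CRS+ACBP 66.8, 43.4, 50.01, 19.1 and 78.9. Outside CDDP no library was lower than 19.1 CPM, the value of CRS+ACBP 4, which lay within the CDDP range. These groups overlapped each other. The other main type V chain, Col5a1 (ENSMUSG00000026837, chromosome 2, 27886425 to 28039514, plus strand), stood at 13.6, 12.97, 9.83, 8.01 and 12.6 CPM in PBS and 10.2, 3.51, 9.66, 4.89 and 0.484 in CDDP. Its groups overlapped, with CDDP 1 and 3 inside the PBS range (log2 fold change -0.98 ± 0.36, edgeR adjusted p = 0.0322). Col5a1 was at 12.8, 13.2, 16.9, 8.15 and 11.6 in ACBP and 12.4, 13.4, 17.2, 11.8 and 8.17 in CDDP+ACBP, and at 12.4, 13.6, 10.5, 9.57 and 9.97 in CRS and 11.1, 10.2, 7.82, 8.22 and 10.2 in CRS+ACBP. The call ended in 9 of 19 alternatives, among them leaving out PBS 1, 2 or 5 or CDDP 2 or 4 (without CDDP 2, log2 fold change -0.84, edgeR adjusted p = 0.0873). Col5a2, the third chain, did not pass (log2 fold change -0.62 ± 0.45, edgeR adjusted p = 0.275).

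A pair of fibrillar genes best known from cartilage and bone fell as well. Col27a1 (ENSMUSG00000045672, chromosome 4, 63214004 to 63334991, plus strand), a fibrillar collagen with a shortened and interrupted helix, stood at 41.3, 49.3, 52.97, 61.6 and 62.9 CPM in PBS and 36.7, 9.53, 15.1, 10.9 and 10.8 in CDDP. The groups did not overlap, CDDP 1 being far above its 4 fellows (log2 fold change -1.69 ± 0.37, edgeR adjusted p = 0.000682). In ACBP it was at 55.8, 65.2, 25.2, 71.6 and 83.1 and in CDDP+ACBP at 45.7, 30.01, 104, 79.04 and 50.7. CRS libraries had 36.1, 42.8, 35.5, 78.6 and 42.6 CPM and CRS+ACBP libraries 32.1, 23.6, 42.6, 30.8 and 68.5. Of the groups other than PBS, the libraries ACBP 3, CDDP+ACBP 2, CRS 1 and 3 and CRS+ACBP 1, 2 and 4 lay within the CDDP range. They were below CDDP 1 only, and no library outside CDDP was lower than 23.6 CPM. Col24a1 (ENSMUSG00000028197, chromosome 3, 145292472 to 145552011, plus strand) was a rare transcript, with 22, 22, 24, 13 and 15 counts in PBS and 7, 2, 4, 1 and 0 in CDDP. As CPM these were 1.32, 1.28, 1.47, 0.801 and 0.938 and 0.398, 0.111, 0.219, 0.0504 and 0, a fall with no overlap (log2 fold change -2.80 ± 0.60, edgeR adjusted p = 0.000532). Its ACBP values were 1.01, 1.09, 0.418, 0.543 and 0.983, and its CDDP+ACBP values 0.535, 0.531, 0.707, 0.342 and 0.778. CRS libraries held 0.964, 0.736, 0.128, 1.49 and 0.805 CPM, and CRS+ACBP libraries 0.373, 0.430, 0.751, 0.0600 and 0.271. Outside CDDP, the libraries CRS 3, CDDP+ACBP 4 and CRS+ACBP 1, 4 and 5 were also below the PBS range and within that of CDDP. Of the cartilage and bone marker list, 1 of 9 genes was abundant enough to test, and the list summed to at most 6.09 CPM in any library.

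The type I and III genes, the usual measure of fibrosis, were uneven within CDDP. Type III is the collagen of the liver's reticular fibres. Col3a1 (ENSMUSG00000026043, chromosome 1, 45311538 to 45349706, plus strand) stood at 26.6, 27.5, 19.7, 29.3 and 25.8 CPM in PBS and at 9.04, 1.73, 29.7, 9.83 and 0.0807 in CDDP. CDDP 3 was above every PBS library and the other 4 CDDP libraries were below them all (log2 fold change -1.34 ± 0.54, edgeR adjusted p = 0.0454). In ACBP the gene had 33.4, 23.9, 55.3, 15.9 and 30.2 CPM, and in CDDP+ACBP 21.03, 43.03, 22.02, 26.02 and 16.2. The CRS values were 33.6, 32.4, 24.6, 28.3 and 23.3, and those of CRS+ACBP 20.5, 21.2, 28.3, 18.97 and 32.2. Those 4 groups overlapped PBS, ACBP 3 being the highest of all libraries. The call ended in 14 of 19 alternatives, among them leaving out any 1 library of PBS or CDDP other than PBS 3 and CDDP 3 (without CDDP 5, log2 fold change -1.03, edgeR adjusted p = 0.0553). Without CDDP 3 the fall was larger (log2 fold change -2.29, edgeR adjusted p = 0.000851). Col1a2 and Col1a1, the chains of type I, did not pass: Col1a2 was at 13.8 ± 3.27 CPM in PBS and 7.67 ± 7.81 in CDDP (SD, n = 5; log2 fold change -0.84 ± 0.46, edgeR adjusted p = 0.145), and Col1a1 at 7.04 ± 2.43 and 5.003 ± 5.43 (log2 fold change -0.48 ± 0.59, edgeR adjusted p = 0.534). Without CDDP 3, Col1a2 passed (log2 fold change -1.61, edgeR adjusted p = 0.00376), and Col1a1 did not (log2 fold change -1.35, edgeR adjusted p = 0.0613). The smooth muscle markers of CDDP 3, given above, moved with these values, and their part in the result was not tested. Col11a2, a minor chain of cartilage fibrils, did not pass (log2 fold change 0.27 ± 0.30, edgeR adjusted p = 0.496).

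In type IV, 1 of 5 genes rose and 1 fell. The type IV network in most organs is built from the chains of Col4a1 and Col4a2. Col4a1 (ENSMUSG00000031502, chromosome 8, 11198423 to 11312826, minus strand) stood at 11.5, 29.8, 10.6, 15.5 and 11.2 CPM in PBS and at 14.8, 29.2, 37.9, 35.5 and 48.3 in CDDP. CDDP 3, 4 and 5 were above every PBS library, CDDP 2 was above all but the muscle-rich PBS 2, and CDDP 1 lay within the PBS range (log2 fold change 1.07 ± 0.30, edgeR adjusted p = 0.00494). ACBP libraries had 16.97, 10.6, 18.3, 9.84 and 13.3 CPM and CDDP+ACBP libraries 17.5, 25.7, 12.4, 10.5 and 10.4. For CRS the values were 15.2, 15.8, 13.5, 14.5 and 12.3, and for CRS+ACBP 21.8, 14.2, 18.1, 10.2 and 16.1. No library of these 4 groups exceeded 25.7 CPM. Without PBS 2 the rise was larger (log2 fold change 1.44, edgeR adjusted p = 0.000303), and without CDDP 5 it was smaller and still passed (log2 fold change 0.90, edgeR adjusted p = 0.0203).

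Col4a2 (ENSMUSG00000031503, chromosome 8, 11312805 to 11449287, plus strand) had a smaller log2 fold change than its partner, a difference between genes that was not tested. It stood at 10.6, 26.6, 15.2, 12.9 and 11.4 CPM in PBS and at 18.1, 18.7, 30.1, 23.8 and 10.97 in CDDP, where 4 libraries were above every PBS library except PBS 2 (log2 fold change 0.41 ± 0.24, edgeR adjusted p = 0.179). Without PBS 2 the rise passed (log2 fold change 0.70, edgeR adjusted p = 0.0170). By limma voom with all libraries it passed too (log2 fold change 0.76, adjusted p = 0.00384). Col4a2 also passed without the libraries rich in muscle or brain (log2 fold change 0.70, edgeR adjusted p = 0.0149). Without those and CDDP 5, Col4a2 passed again (log2 fold change 0.85, edgeR adjusted p = 0.00146). In ACBP it had 16.4, 11.6, 15.2, 13.3 and 14.3 CPM, in CDDP+ACBP 16.5, 23.5, 11.6, 13.9 and 10.5, in CRS 15.1, 14.1, 14.3, 14.5 and 12.7 and in CRS+ACBP 14.8, 13.1, 16.02, 10.1 and 18.3. The ratio of Col4a1 to Col4a2 CPM was 0.696 to 1.21 in PBS. It was 0.758 to 1.09 in CDDP+ACBP, 0.946 to 1.12 in CRS, 0.741 to 1.21 in ACBP and 0.8815 to 1.475 in CRS+ACBP. Of these libraries, CRS+ACBP 1 was above the PBS range and ACBP 3 just above it. In CDDP the ratio was 0.821, 1.56, 1.26, 1.49 and 4.40, above the PBS range in 4 of 5 libraries. The highest ratio, in CDDP 5, came with the highest Col4a1 and the lowest Col4a2 of that group. The exons of both genes share 22 bases, 0.295% of those of Col4a1. In the interaction, Col4a1 did not pass (log2 fold change -0.93 ± 0.42, edgeR adjusted p = 0.116), and without PBS 2 it passed (log2 fold change -1.29, edgeR adjusted p = 0.0199).

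**Figure D3:**
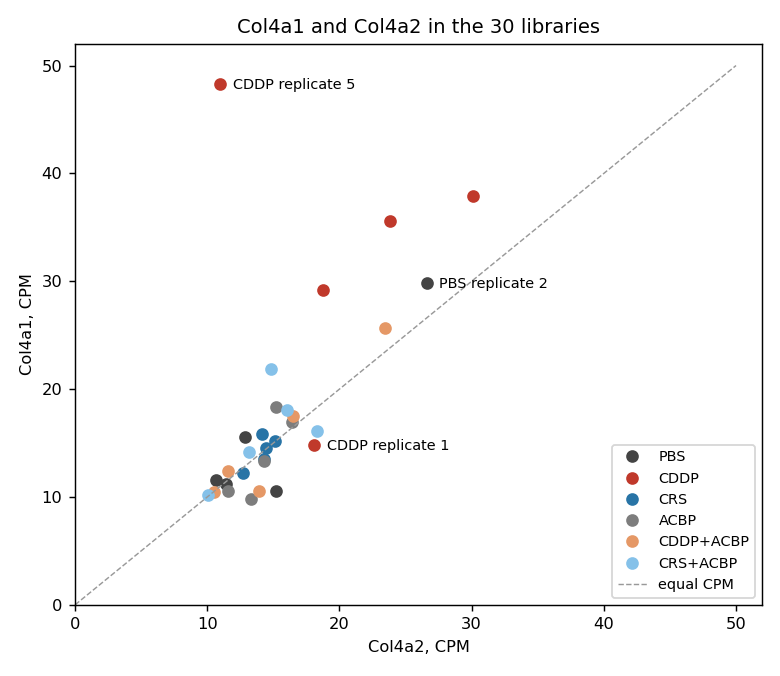
Col4a1 against Col4a2 in CPM, 1 point for each of the 30 libraries, coloured by group, with a dashed line of equal CPM. CDDP 5 lies far from the line at 10.97 and 48.3 CPM, 3 other CDDP libraries lie above it, and the muscle-rich PBS 2 stands at 26.6 and 29.8 CPM beside the other PBS libraries near the lower end.

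Of the 3 kidney-type chains of type IV, 1 passed in CDDP against PBS. Col4a3 (ENSMUSG00000079465, chromosome 1, 82586921 to 82722059, plus strand), a chain of the glomerular filter, was at 1.14, 3.43, 3.32, 2.83 and 1.63 CPM in PBS and 1.31, 0.669, 0.878, 0.655 and 0.161 in CDDP, a fall with overlap of PBS 1 and CDDP 1 (log2 fold change -1.72 ± 0.53, edgeR adjusted p = 0.0109). ACBP libraries had 1.96, 0.961, 2.15, 6.04 and 1.90 CPM and CDDP+ACBP libraries 0.356, 1.22, 1.36, 2.33 and 1.04, CRS libraries 2.67, 1.66, 1.22, 1.77 and 1.55 and CRS+ACBP libraries 0.435, 0.675, 1.75, 1.80 and 3.19. The brain-rich ACBP 4 was the highest of all. The call of Col4a3 in CDDP against PBS ended without the libraries rich in muscle or brain and CDDP 5 (log2 fold change -1.35, edgeR adjusted p = 0.053). An opposite-strand transcript, C430014B12Rik, shares 5.65% of the Col4a3 exon bases and had 1453 counts in all against 860 of Col4a3, so the level of Col4a3 is uncertain where counting ignored strand. Col4a5 (ENSMUSG00000031274, chromosome X, 141475385 to 141689234, plus strand), its X-linked partner, stood at 2.57, 4.54, 3.38, 2.59 and 3.50 CPM in PBS and 2.73, 2.90, 2.69, 3.08 and 2.58 in CDDP, which did not pass (log2 fold change -0.25 ± 0.24, edgeR adjusted p = 0.437). It was at 5.50, 5.21, 3.71, 4.75 and 4.21 in CRS and 2.74, 3.93, 1.94, 3.48 and 2.98 in CRS+ACBP. With the ACBP pump it had 4.04, 3.20, 3.65, 3.02 and 3.93 CPM, and with cisplatin added 3.27, 3.24, 6.03, 3.13 and 1.75. All CRS libraries were above all CDDP libraries, and CDDP against CRS was called (log2 fold change -0.74 ± 0.24, edgeR adjusted p = 0.0190). This call ended with no filter on low counts (edgeR adjusted p = 0.0537), without the libraries rich in muscle or brain (0.0548) and without those and CDDP 5 (0.0768). Col4a4, the remaining kidney-type chain, did not pass in any of the 10 comparisons (CDDP against PBS, log2 fold change -0.63 ± 0.50, edgeR adjusted p = 0.314).

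Of the other types, Col18a1 (ENSMUSG00000001435, chromosome 10, 77052178 to 77166548, minus strand), the multiplexin whose end is endostatin, stood at 779, 724, 815, 679 and 702 CPM in PBS and at 1045, 784, 1016, 713 and 2449 in CDDP. CDDP 5 had more than any other library (log2 fold change 0.70 ± 0.22, edgeR adjusted p = 0.0138). Leaving it out brought the rise to a log2 fold change of 0.27 and ended the call (edgeR adjusted p = 0.173). In ACBP the gene was at 1028, 921, 936, 711 and 913 and in CDDP+ACBP at 1004, 842, 1031, 846 and 828. CRS libraries held 775, 909, 998, 896 and 821 CPM, and CRS+ACBP libraries 1084, 912, 785, 598 and 881. ACBP, CRS and CRS+ACBP overlapped PBS, while all CDDP+ACBP libraries lay just above the PBS range. Its relative Col15a1 (ENSMUSG00000028339, chromosome 4, 47208161 to 47313167, plus strand), which underlies blood vessel endothelium, went the other way. Col15a1 stood at 9.69, 10.7, 6.76, 7.82 and 5.75 CPM in PBS and at 6.03, 3.45, 3.51, 1.36 and 4.52 in CDDP, with CDDP 1 alone inside the PBS range (log2 fold change -1.11 ± 0.32, edgeR adjusted p = 0.00690). ACBP libraries had 13.4, 9.28, 6.69, 7.37 and 5.90 CPM and CDDP+ACBP libraries 6.53, 16.8, 7.50, 6.26 and 7.20. The CRS values were 10.7, 8.22, 9.21, 6.52 and 7.92, and the CRS+ACBP values 7.84, 8.04, 11.6, 4.98 and 5.02. No library outside CDDP was below 4.98 CPM, but ACBP 5 and CRS+ACBP 4 and 5 lay within the CDDP range, as did PBS 5.

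Col14a1 (ENSMUSG00000022371, chromosome 15, 55307750 to 55520803, plus strand) encodes a collagen that sits on the surface of fibrils, and it was the most abundant per kilobase among the falling genes outside the fibrillar class. It stood at 18.8, 16.99, 20.96, 25.6 and 20.6 CPM in PBS and 11.7, 2.90, 6.91, 9.68 and 0.403 in CDDP, without overlap (log2 fold change -1.69 ± 0.38, edgeR adjusted p = 0.000816). With the ACBP pump it was at 27.6, 19.3, 29.8, 21.5 and 31.3, and with cisplatin added at 28.04, 30.1, 12.9, 21.1 and 18.02. CRS libraries had 24.3, 22.9, 21.8, 17.5 and 19.996 CPM and CRS+ACBP libraries 18.5, 21.4, 25.1, 18.4 and 20.4. Every library outside CDDP held more than every CDDP library. Without CDDP 5, whose value was the lowest, the fall still passed (log2 fold change -1.40, edgeR adjusted p = 0.000188). Col7a1 (ENSMUSG00000025650, chromosome 9, 108953586 to 108984875, plus strand), the anchoring fibril collagen best known from skin, had 4.49, 2.85, 4.55, 1.42 and 3.69 CPM in PBS and 1.82, 0.0557, 1.04, 1.11 and 0.161 in CDDP. PBS 4 and CDDP 1 overlapped (log2 fold change -1.99 ± 0.46, edgeR adjusted p = 0.00106). ACBP libraries held 1.20, 3.27, 1.73, 2.29 and 1.78 CPM and CDDP+ACBP libraries 2.32, 1.97, 2.88, 1.82 and 1.56. In CRS the gene was at 3.12, 2.51, 2.75, 3.26 and 3.22 and in CRS+ACBP at 2.61, 2.52, 1.56, 2.82 and 2.31. The ACBP and PBS groups overlapped, and their difference did not pass (log2 fold change -0.72 ± 0.44, edgeR adjusted p = 0.999).

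Type VI collagen forms beaded microfibrils around cells. Its chain Col6a3 (ENSMUSG00000048126, chromosome 1, 90765923 to 90843971, minus strand) was at 7.12, 6.98, 3.99, 8.26 and 6.81 CPM in PBS and 4.66, 1.62, 6.20, 3.58 and 0.645 in CDDP, with CDDP 1 and 3 inside the PBS range (log2 fold change -0.98 ± 0.37, edgeR adjusted p = 0.0354). The call ended in 12 of 19 alternatives, among them leaving out PBS 1, 2, 4 or 5 or CDDP 2, 4 or 5 (without CDDP 5, log2 fold change -0.72, edgeR adjusted p = 0.0829). ACBP values were 9.59, 9.03, 10.9, 5.25 and 6.33, and CDDP+ACBP values 6.53, 8.45, 11.6, 7.004 and 3.89. CRS libraries had 9.30, 7.67, 6.91, 9.28 and 5.32 CPM and CRS+ACBP libraries 6.41, 8.47, 8.95, 3.84 and 9.63. Its partners Col6a1 (log2 fold change -0.70 ± 0.47, edgeR adjusted p = 0.238) and Col6a2 (log2 fold change -0.78 ± 0.40, edgeR adjusted p = 0.115) did not pass. Without CDDP 3 both passed (log2 fold changes -1.34 and -1.10). Col6a6 (ENSMUSG00000043719, chromosome 9, 105687809 to 105828160, minus strand), an alternative chain of the same type, was near its detection limit, with 10, 16, 3, 11 and 15 counts in PBS and 4, 0, 1, 1 and 0 in CDDP. As CPM these were 0.598, 0.931, 0.184, 0.678 and 0.938 and 0.228, 0, 0.0549, 0.0504 and 0, with PBS 3 inside the CDDP range (log2 fold change -3.14 ± 0.89, edgeR adjusted p = 0.00581). Its other values were 0.315, 1.15, 0.657, 0.483 and 1.17 in ACBP and 0.178, 1.49, 0.381, 0.342 and 0.0648 in CDDP+ACBP. CRS libraries had 1.25, 0.736, 0.128, 0.425 and 0 and CRS+ACBP libraries 0.684, 0.307, 0.501, 0.720 and 1.09, so 2 libraries of CDDP+ACBP and 2 of CRS lay within the CDDP range. By limma voom the call of Col6a6 in CDDP against PBS ended (log2 fold change -2.70, adjusted p = 0.0579).

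Col13a1 (ENSMUSG00000058806, chromosome 10, 61838236 to 61979108, minus strand), a collagen that spans the cell membrane, stood at 5.68, 6.22, 6.45, 4.68 and 4.25 CPM in PBS and at 10.9, 10.5, 3.35, 8.62 and 4.84 in CDDP. CDDP 1, 2 and 4 were above PBS and CDDP 3 below it (log2 fold change 0.49 ± 0.31, edgeR adjusted p = 0.204). CRS libraries had 4.03, 3.13, 4.35, 5.46 and 3.47 CPM, and CDDP against CRS was called (log2 fold change 0.91 ± 0.31, edgeR adjusted p = 0.0236). With the ACBP pump it was at 3.91, 6.02, 4.54, 2.29 and 6.14, with cisplatin added at 6.18, 3.45, 7.61, 4.56 and 2.72 and with CRS added at 5.10, 3.01, 4.32, 2.58 and 3.26. The remaining tested members of this class, Col9a3, Col12a1, Col16a1, Col20a1 and Col23a1, did not pass in any of the 10 comparisons. Their CDDP log2 fold changes ran from -1.14 (Col23a1) to 0.32 (Col20a1).

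**Figure D4:**
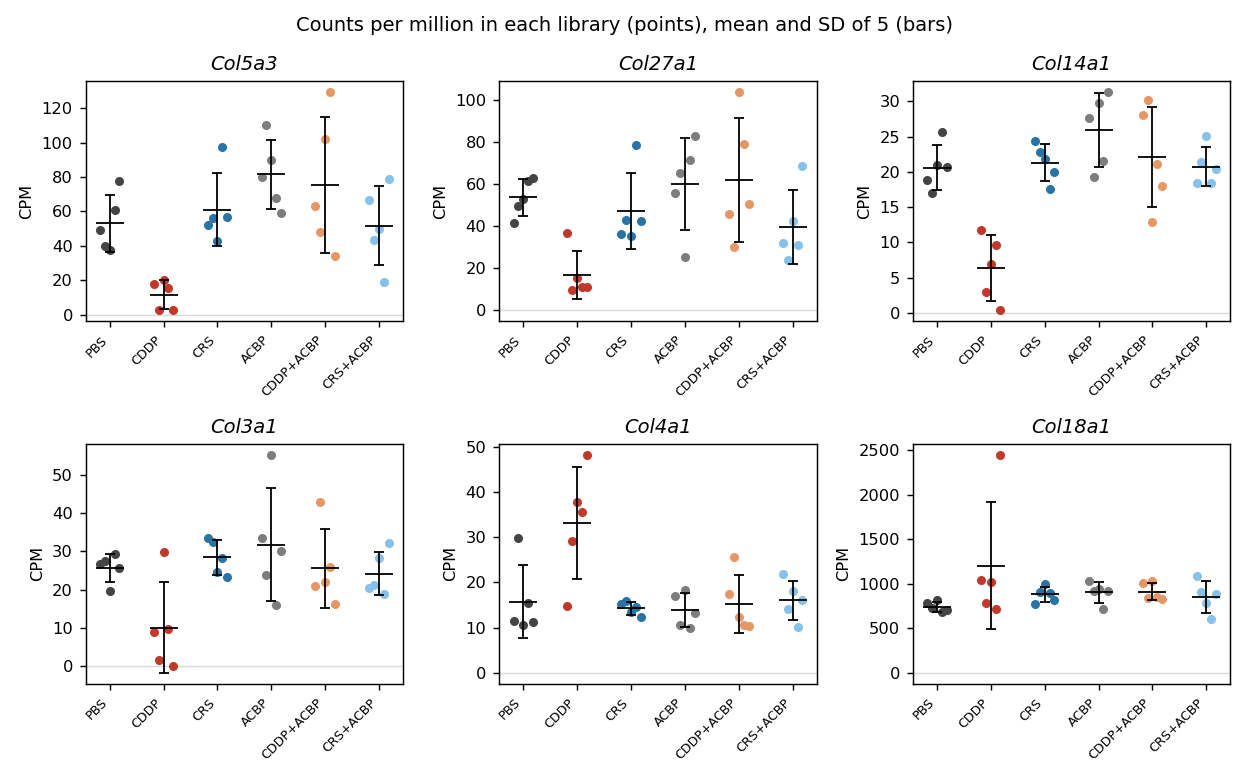
CPM of 6 collagen genes in each library (points) with the mean and SD of each group of 5 (bars). Col5a3, Col27a1 and Col14a1 are below every PBS library in all CDDP libraries, Col3a1 is spread from 0.0807 to 29.7 CPM in CDDP, and Col4a1 and Col18a1 are highest in CDDP 5.

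Summed by class, fibrillar transcripts were at 174 ± 26.3 CPM in PBS, 64.004 ± 42.4 in CDDP, 224 ± 26.5 in ACBP and 204 ± 65.7 in CDDP+ACBP (SD, n = 5). Type IV summed to 37.7 ± 15.8, 57.98 ± 13.3, 35.5 ± 5.37 and 36.4 ± 11.1. The others without Col18a1 summed to 81.2 ± 3.91, 51.4 ± 29.04, 88.8 ± 12.1 and 83.1 ± 16.6. In CRS the 3 sums were 183 ± 42.5, 36.01 ± 3.14 and 85.004 ± 12.04, and in CRS+ACBP 153 ± 46.7, 36.1 ± 6.40 and 71.9 ± 10.6. Sums of CPM weight abundant genes most and were not tested.

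Markers of cells that make collagen, and of other cells, were counted in the same comparison, in which 18.3% of all genes were lower and 23.1% higher. Of 15 stellate cell markers, 8 were lower in CDDP than in PBS and 0 higher. Without Des, which muscle also expresses, the list summed to 471 to 564 CPM in PBS and to 351, 261, 327, 316 and 82.5 in the 5 CDDP libraries, and to 450 to 574 in CDDP+ACBP. Reln, a secreted protein of stellate cells, stood at 25.8, 27.1, 30.7, 27.5 and 22.9 CPM in PBS and 20.5, 5.96, 13.3, 8.82 and 2.50 in CDDP. Among the other members of the list, Ecm1, given below, was called lower too, while the ranges of Lrat and Des overlapped between the groups. Lrat was at 6.15 to 9.13 CPM in PBS and 0.887 to 11.6 in CDDP, and Des at 7.95 to 368 and 3.23 to 71.2. Sinusoidal endothelial markers had 5 of 12 lower and 1 higher, portal fibroblast and mesothelial markers 3 of 11 lower and 0 higher, and myofibroblast and smooth muscle markers 3 of 8 higher and 0 lower. The median sum of this last list was 30.7 CPM in CDDP and 29.2 in PBS, CDDP 3 alone being far above PBS. Without Postn and Timp1, which is also among the breakdown genes below, 2 of 6 were higher. Skeletal muscle markers had 3 of 20 lower, their sums ranging from 22.1 to 11727 CPM in PBS and from 8.42 to 973 in CDDP. Cholangiocyte markers had 3 of 8 higher and 1 lower, hepatocyte markers 5 of 10 higher and 3 lower, and brain markers 3 of 7 lower. Of 6 adipocyte markers 1 was higher, the list reaching 532 CPM in CDDP 2. The 1 testable cartilage and bone marker fell, while the 1 of the pancreas and 2 of skin did not pass. None of the defining markers of the stellate or sinusoidal endothelial lists was at 0 in all libraries of a group. The part of these cell types in the collagen result was not tested. Without the 7 libraries rich in muscle or brain, 11 collagens changed in CDDP against PBS, and without CDDP 5 as well, 9 changed.

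Under the ACBP pump, no collagen passed for cisplatin (CDDP+ACBP against ACBP), where 0.129% of all genes did. None of the 28 had an unadjusted p under 0.05, and DESeq2 and limma voom called 0 as well, while over all genes they called 87 and 70 against 21 by edgeR. The collagen log2 fold changes ran from -1.40 to 0.29 around a median of -0.09. Cdkn1a, given above, was lower in every CDDP+ACBP library than in every CDDP library, and its part in the result was not tested.

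The difference between the 2 cisplatin effects was tested as an interaction, whose log2 value is the cisplatin effect under ACBP minus that under PBS. It uses the same CDDP and PBS libraries as the comparison of CDDP with PBS. It passed for 5 of 28 collagens, all with positive values, beside 19.7% of all genes (8.38% positive and 11.3% negative). They were Col5a3 (log2 fold change 2.05 ± 0.61, edgeR adjusted p = 0.0189), Col27a1 (log2 fold change 1.73 ± 0.51, edgeR adjusted p = 0.0185), Col7a1 (log2 fold change 2.03 ± 0.63, edgeR adjusted p = 0.0236), Col24a1 (log2 fold change 2.32 ± 0.80, edgeR adjusted p = 0.0398) and Col14a1 (log2 fold change 1.46 ± 0.52, edgeR adjusted p = 0.0466). In that order, the cisplatin log2 fold changes of these 5 under the PBS pump were -2.17, -1.69, -1.99, -2.80 and -1.69, and under ACBP -0.11, 0.04, 0.04, -0.48 and -0.23, none of which passed. Col5a3 and Col27a1 passed in all 29 alternatives tried for the interaction, Col7a1 in 27, Col24a1 in 13 and Col14a1 in 11. The call of Col24a1 ended without PBS 1, 2, 3 or 5, CDDP 2, 4 or 5, ACBP 3, 4 or 5 or CDDP+ACBP 3 or 5 (highest edgeR adjusted p = 0.0748 with 1 library left out). That of Col14a1 ended without PBS 1, 3, 4 or 5, CDDP 2 or 3, any ACBP library or CDDP+ACBP 1, 2 or 4 (highest edgeR adjusted p = 0.0879). For the other 23 with all libraries, including Col3a1 (log2 fold change 1.04 ± 0.75, edgeR adjusted p = 0.334) and Col15a1 (log2 fold change 1.17 ± 0.45, edgeR adjusted p = 0.0639), the test did not pass. Some of these calls turn on the setting. Without CDDP 3 the interaction of Col3a1 passed (log2 fold change 1.98, edgeR adjusted p = 0.0329). That of Col15a1 passed without CDDP 1 or ACBP 1 (log2 fold change 1.41, edgeR adjusted p = 0.0244 and log2 fold change 1.39, edgeR adjusted p = 0.0310) and by DESeq2 and limma voom (adjusted p = 0.0437 and 0.0418). Col6a6 passed without CDDP 1 (log2 fold change 3.62, edgeR adjusted p = 0.0383), and Col4a1 without PBS 2, CDDP 1 or CDDP+ACBP 2 (edgeR adjusted p at most 0.0397). Without the libraries rich in muscle or brain and CDDP 5, Col4a1 (log2 fold change -1.60, edgeR adjusted p = 0.00829) and Col4a2 (log2 fold change -1.06, edgeR adjusted p = 0.0167) passed.

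**Figure D5:**
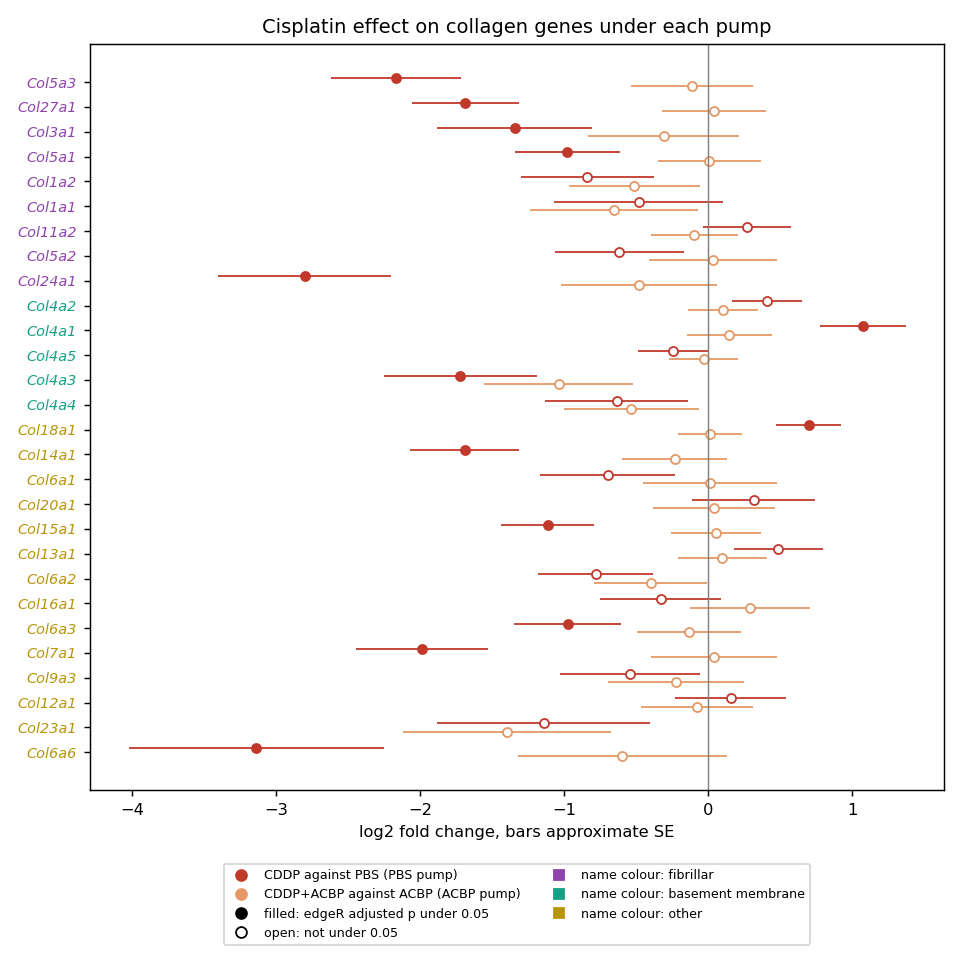
Log2 fold change after cisplatin of each tested collagen gene under the PBS pump (red) and the ACBP pump (orange), with approximate SE bars and filled points where the edgeR adjusted p is under 0.05. Under the PBS pump 13 points are filled and 11 of them lie left of 0, and under ACBP none is filled.

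Within cisplatin, CDDP+ACBP was set against CDDP, which uses the same CDDP libraries as the comparison above and is therefore not separate evidence. Here 9 collagens were higher with ACBP and 1 lower, beside 33.8% of all genes (14.9% higher, 18.8% lower). Those higher were Col5a3 (log2 fold change 2.67 ± 0.46, edgeR adjusted p = 7.98e-05), Col27a1, Col14a1, Col7a1, Col5a1, Col24a1, Col15a1, Col6a6 and Col6a3, with log2 fold changes from 1.12 to 2.72. Col4a1 was lower (log2 fold change -1.11 ± 0.30, edgeR adjusted p = 0.00496). Col4a2 passed as lower in some alternatives only. These were the fits without the libraries rich in muscle or brain, without those and CDDP 5, and without CDDP+ACBP 2 (edgeR adjusted p = 0.0309, 0.00385 and 0.0477). For Col5a3, Col14a1 and Col15a1 the 2 groups did not overlap, and the share of all genes without overlap was not counted. The count dropped to 5 without CDDP 2, the CDDP library with the least Col5a3 and Col7a1. Single libraries that ended a call were CDDP 2, CDDP 5 or CDDP+ACBP 3 for Col7a1 (highest edgeR adjusted p = 0.0685), CDDP 2 or CDDP+ACBP 3 for Col5a1 (0.0549) and Col6a3 (0.0637), CDDP 2, 4 or 5 for Col24a1 (0.0622), and CDDP 2 or CDDP+ACBP 2 for Col6a6 (0.145). By limma voom the calls of Col7a1, Col5a1, Col24a1, Col6a6 and Col6a3 ended (adjusted p from 0.0803 to 0.250). Fitting only these groups ended those of Col7a1, Col5a1, Col15a1 and Col6a3 (edgeR adjusted p from 0.0505 to 0.154). Col3a1 did not pass (log2 fold change 1.34 ± 0.54, edgeR adjusted p = 0.0543) and passed without CDDP 3 (log2 fold change 2.29, edgeR adjusted p = 0.00121).

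CDDP was also set against CRS, again with the same CDDP libraries. In this comparison 11 collagens were lower in CDDP and 2 higher, beside 34.6% of all genes (15.1% lower, 19.5% higher). The lower ones were Col5a3, Col14a1, Col7a1, Col3a1, Col5a1, Col24a1, Col15a1, Col4a5, Col6a6, Col27a1 and Col6a3, and the higher ones Col4a1 and Col13a1. Col5a3 differed by a log2 fold change of -2.37 ± 0.45 (edgeR adjusted p = 0.000222) and Col4a1 by 1.22 ± 0.30 (edgeR adjusted p = 0.00244). Col5a3, Col14a1, Col7a1, Col15a1 and Col4a5 had no overlap between the groups, and the share of all genes without it was not counted. Leaving out CDDP 1 or 2 or CRS 2 or 5 ended the call of Col13a1 (highest edgeR adjusted p = 0.0736), and CRS 1, which is muscle-rich, that of Col6a6 (0.0857). The call of Col3a1 ended without CDDP 1, 2 or 4 or CRS 1, 2 or 4 (0.0824), and that of Col5a1 without CDDP 2 or 4 or any CRS library (0.110).

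Neither CRS nor the ACBP pump alone changed a collagen by this test. In CRS against PBS, 0 of 28 passed beside 0.141% of all genes, 1 had an unadjusted p under 0.05, and the smallest adjusted p was 0.554 (edgeR). In ACBP against PBS, 0 passed beside 0% of all genes, and no collagen had an unadjusted p under 0.05. For CRS+ACBP against ACBP (0% of all genes), CRS+ACBP against CRS (0%) and the interaction of CRS and ACBP (0%), 0, 1 and 1 of the 28 had an unadjusted p under 0.05. DESeq2 and limma voom called 0 collagens in each of these 5 comparisons. The collagen log2 fold changes ran from -0.50 to 0.57 for CRS and from -0.72 to 0.75 for ACBP, around medians of 0.06 and 0.15. For Col5a3 the values were 0.20 ± 0.43 (CRS) and 0.62 ± 0.43 (ACBP), for Col3a1 0.14 ± 0.53 and 0.30 ± 0.53, and for Col4a1 -0.14 ± 0.30 and -0.19 ± 0.30. A p that misses the threshold does not show that the levels were alike.

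Partner genes of collagen were read from 7 lists, again as CDDP against PBS with 41.4% of all genes as background. Enzymes that fold and modify the chains had 6 of 22 higher and 1 lower. P4hb, a subunit of prolyl 4-hydroxylase and a general protein disulfide isomerase, went from 757 ± 115 to 1768 ± 325 CPM (log2 fold change 1.22 ± 0.20, edgeR adjusted p = 2.28e-05). The lysyl hydroxylase Plod1 went from 33.7 ± 3.60 to 55.3 ± 16.1 (log2 fold change 0.71 ± 0.16, edgeR adjusted p = 0.000661), and P3h3, of the prolyl 3-hydroxylase family, from 4.91 ± 1.06 to 1.73 ± 0.895 (log2 fold change -1.49 ± 0.32, edgeR adjusted p = 0.000599). The list's median log2 fold change was 0.04. Processing and crosslinking genes had 2 of 12 higher and 5 lower. Loxl3, of the lysyl oxidase family, fell from 17.2 ± 1.76 to 10.7 ± 0.839 CPM (log2 fold change -0.69 ± 0.14, edgeR adjusted p = 0.000267), and the transglutaminase Tgm2 rose from 72.02 ± 8.06 to 201 ± 176 (log2 fold change 1.48 ± 0.32, edgeR adjusted p = 0.000596). Adamts2, which trims procollagen, ranged from 3.23 to 146 CPM in CDDP against 3.01 to 4.38 in PBS (log2 fold change 3.08 ± 0.73, edgeR adjusted p = 0.00148), so CDDP libraries differed widely and 1 at least lay within the PBS range.

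Breakdown genes had 3 of 14 higher and 2 lower. The lysosomal protease Ctsl was at 242 ± 47.8 CPM in PBS and 1416 ± 1470.3 in CDDP (log2 fold change 2.55 ± 0.44, edgeR adjusted p = 5.21e-05), all CDDP libraries (465 to 4006) lying above all PBS libraries (at most 306). Reck, a membrane inhibitor of matrix proteases, stood at 5.38 ± 1.47 and 1.66 ± 0.439 (log2 fold change -1.69 ± 0.30, edgeR adjusted p = 7.07e-05). Timp1, an inhibitor of matrix proteases, rose from 0.167 ± 0.143 to 0.811 ± 0.659 CPM (log2 fold change 2.23 ± 0.74, edgeR adjusted p = 0.0168). Receptors had 2 of 9 higher and 0 lower: Ddr1, a receptor kinase for collagen (log2 fold change 1.55 ± 0.36, edgeR adjusted p = 0.00112), and Itgb1, the beta-1 integrin (log2 fold change 0.69 ± 0.20, edgeR adjusted p = 0.00600). Basement membrane partners had 3 of 18 higher and 5 lower. Nid1, which links laminin to type IV, rose from 4.68 ± 1.96 to 24.1 ± 19.2 CPM (log2 fold change 2.37 ± 0.40, edgeR adjusted p = 3.55e-05), and Smoc2 from 3.26 ± 1.45 to 16.3 ± 10.4 (log2 fold change 2.31 ± 0.39, edgeR adjusted p = 4.51e-05). The laminin chain Lama1 fell from 4.95 ± 0.380 to 1.51 ± 1.24 (log2 fold change -1.69 ± 0.36, edgeR adjusted p = 0.000545). Fibril partners had 1 of 17 higher, fibronectin (Fn1, log2 fold change 0.85 ± 0.19, edgeR adjusted p = 0.000886), and 5 lower, among them Ecm1 (log2 fold change -1.19 ± 0.21, edgeR adjusted p = 5.92e-05), which is also on the stellate list.

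TGF-beta signalling, the pathway best known for driving collagen transcription, had 7 of 24 higher and 4 lower around a median log2 fold change of 0.09. Its receptor Tgfbr2 rose from 7.87 ± 2.51 to 37.8 ± 34.96 CPM (log2 fold change 2.26 ± 0.38, edgeR adjusted p = 3.88e-05), and its feedback inhibitor Skil from 6.43 ± 1.73 to 28.6 ± 21.8 (log2 fold change 2.15 ± 0.36, edgeR adjusted p = 4.34e-05). Ltbp4, which stores latent TGF-beta in the matrix, fell from 31.7 ± 7.99 to 6.95 ± 3.27 (log2 fold change -2.18 ± 0.30, edgeR adjusted p = 3.44e-06). Under the ACBP pump 0 members of each of the 7 lists passed for cisplatin. In the interaction, beside 19.7% of all genes, 4 of 22 folding, 2 of 12 processing, 2 of 14 breakdown, 1 of 9 receptor, 2 of 18 basement membrane, 2 of 17 fibril and 7 of 24 TGF-beta genes passed. The genes named here were chosen for CDDP against PBS, whose libraries the interaction shares, so its values for them are a description. Negative and past the threshold were P4hb (-1.16), Plod1 (-0.67), Tgm2 (-1.58), Adamts2 (-3.38), Ctsl (-2.66), Itgb1 (-0.93), Nid1 (-2.35), Smoc2 (-2.32), Fn1 (-0.77), Tgfbr2 (-2.15) and Skil (-1.97). P3h3 (1.33), Reck (1.52), Ecm1 (1.16) and Ltbp4 (1.84) were positive and past it. Loxl3 (0.49), Timp1 (-2.84), Ddr1 (-1.37) and Lama1 (1.36) did not pass. Partner genes were not refitted without single libraries, and for Tgm2, Adamts2, Ctsl, Nid1, Tgfbr2 and Skil the CDDP libraries spread widely.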

How the data were processed

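Liver RNA of 30 libraries was prepared with a strand-specific mRNA protocol, per the labels' protocols. Values were deposited as raw counts, 1 number per gene and library, made by the authors with HISAT2 2.2.1, HTSeq 2.0.3 and build mm10, per the submitters' processing notes. The sources used here do not give the gene annotation, whether strand was used in counting, or the quality a read needed. The 5 summary lines were left out. Reads on genes made up a median of 38.0% of the table, and reads on no gene 43.4%. Counts on the opposite strand of a gene therefore cannot be told apart from its own.

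Symbols and Ensembl identifiers came from the table. Exon lengths came from GENCODE vM21, which held 99.21% of the identifiers, and gene positions are those of mm10. CPM used TMM effective library sizes. Genes were tested with edgeR 4.0.16 (R 4.3.3): filterByExpr left 16304 genes, 1 quasi-likelihood fit held 30 libraries and 6 group coefficients with 24 residual degrees of freedom, and p-values were Benjamini-Hochberg adjusted over all genes of each comparison. A gene passed, or was called, at an adjusted p under 0.05. Standard errors are approximate, the log2 fold change over the root of F. Libraries within a group differed by more than sampling noise in every pair and were counted singly. Replicate numbers only name libraries.

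Alternatives were RLE size factors, no filter, a filter of 1 CPM in 5 libraries, DESeq2 1.42.0, limma 3.58.1 (voom with sample quality weights), the compared groups alone, and each library left out. Chosen after seeing the data were fits without 7 libraries rich in muscle or brain transcripts (over 2000 or 100 summed CPM of a marker list), without these and CDDP library 5, and with a muscle score as covariate. The fits by edgeR, DESeq2 and limma voom were tested on simulated data that gave a gene the same spread in every group. Such data cannot show how calls hold where CDDP libraries spread more widely than the others. Members, gene lists and markers were chosen with earlier results of these data known. Values in all libraries are given for members called in at least 1 comparison and for the 2 most abundant of each class, and of each partner list up to 3 called genes with the smallest p. Tables were handled in Python 3.11.15 with pandas 2.3.3 and numpy 2.4.6, and figures drawn with matplotlib 3.10.9.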

Additional observations from a re-analysis of the deposited data

Results flagged for a closer look

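Of 96 groups of 5 libraries examined over 16 collagen genes, 10 had 1 library that stood apart, with a gap to its nearest neighbour above 0.71 of the group's range. Chance flags about 1 in 20 groups when values spread normally, which was not tested for these levels. In each of the 10 it was the highest library of its group. In PBS 2, the library with the most skeletal muscle transcripts, Col4a1 stood at 29.8 CPM (next 15.5) and Col4a2 at 26.6 CPM (next 15.2). In CDDP 5, Col18a1 was at 2449 CPM against 1045 in the next library. CDDP 1, the CDDP library with the least Cdkn1a, held 36.7 CPM of Col27a1 against 15.1 in the next, and 0.228 CPM of Col6a6 against 0.0549. In CRS 4, Col5a3 was at 97.4 CPM (next 57.1) and Col27a1 at 78.6 CPM (next 42.8). The muscle-rich CDDP+ACBP 2 held 16.8 CPM of Col15a1 (next 7.50) and 1.49 CPM of Col6a6 (next 0.381). The brain-rich ACBP 4 held 6.04 CPM of Col4a3 (next 2.15). What these libraries share beyond the marker levels given was not tested.

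The cisplatin effect differed between the pumps in 5 of the 28 tested collagen genes by the interaction test, beside 19.7% of all genes. The effect under the ACBP pump minus that under the PBS pump was 2.05 on the log2 scale for Col5a3, 1.73 for Col27a1, 2.03 for Col7a1, 2.32 for Col24a1 and 1.46 for Col14a1. The effects under the PBS pump were falls, and none under the ACBP pump passed. Cdkn1a was also lower after cisplatin with the ACBP pump, and the part of that difference in these values was not tested.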

How the results depend on the processing

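No paired analysis was possible because the replicate numbers are accession order within a group and pair no libraries. Over 41 calls of a collagen gene in a comparison, 681 of the results under the alternatives kept direction and side of the threshold, 143 kept the direction and lost the threshold, and 0 reversed. The number of collagens changed in CDDP against PBS (13) was 10 to 16 when 1 library was left out, in CDDP+ACBP against CDDP (10) it was 5 to 14, in CDDP against CRS (13) 10 to 18, and in the interaction of CDDP and ACBP (5) 3 to 8. The interaction gave 8 without CDDP 1 and 3 without PBS 1, 3 or 5, CDDP 2 or ACBP 3, 4 or 5, while CDDP+ACBP against CDDP gave 5 without CDDP 2. Fitting only the groups compared gave 8 for CDDP against PBS, 4 for CDDP+ACBP against CDDP, 7 for CDDP against CRS and 3 for the interaction, with fewer libraries in each fit. Over all genes, these fits called 4789 of 14790 in CDDP against PBS, 2217 of 14779 in CDDP+ACBP against CDDP and 3709 of 14797 in CDDP against CRS. The main fit called 6756, 5503 and 5639 of 16304 there. In CRS against PBS the call count went up instead, from 23 in the main fit to 265 of 14867. limma voom gave 5 for CDDP+ACBP against CDDP and 8 for CDDP against CRS, and no filter gave 3 for the interaction. The cause of these shifts was not tested. Without the libraries rich in muscle or brain the 4 counts were 11, 8, 9 and 4, and without CDDP 5 as well 9, 7, 9 and 5. In the other 6 comparisons the count stayed at 0 in each alternative run.

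Over all genes, CRS against PBS called 23 by edgeR, 80 by DESeq2 and 930 by limma voom, and CDDP+ACBP against ACBP 21, 87 and 70. ACBP against PBS called 0, 11 and 2, CRS+ACBP against ACBP 0, 24 and 19, CRS+ACBP against CRS 0, 0 and 3, and the interaction of CRS and ACBP 0, 6 and 1. CDDP+ACBP against CDDP called 5503 by edgeR and 3530 by limma voom. Depth limits the rare members: 12 had too few counts for the main fit, and Col24a1 and Col6a6 rest on 0 to 7 counts in CDDP libraries.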
